A study of Homo sapiens with 6 samples.

Results

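The genes described here build and regulate sterols and fatty acids in 92.1 cells, an established human uveal melanoma line. They were chosen by name: 42 symbols, of which 31 had a row among the 12306 rows of the deposited table. RNA was sequenced after 2 h with 1 µM VS-4718, which inhibits focal adhesion kinase, or with the DMSO vehicle, in cells grown in RPMI medium with serum. Each group held 3 libraries, so every comparison is 3 against 3. All 6 come from this single line, and the labels do not say whether the libraries of a group were separate cultures, and the spread that enters each p-value may therefore be technical. In such bulk RNA, fewer cells of a kind and less RNA per cell cannot be told apart. Values are log2 of a TPM-like abundance (transcripts scaled to a fixed total and to length), and no read totals come with them, so the depth is unknown.

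Cells make cholesterol from acetyl-CoA in a long series of steps: a mevalonate arm that ends in farnesyl diphosphate, then squalene, lanosterol and a series of trimming reactions. Fatty acids are made from the same acetyl-CoA and are then elongated and desaturated. Both routes are under SREBP transcription factors, which the escort protein SCAP carries out of the endoplasmic reticulum when sterols are low and which INSIG proteins hold back when sterols are high. SREBP-2 is known mainly for sterol genes and SREBP-1 mainly for fatty acid genes, and both bind promoters together with the factors NF-Y and SP1.

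The 31 members with a row fell into 3 mevalonate-arm enzymes of 7 listed, 6 of 11 enzymes from squalene to cholesterol, 8 of 10 SREBP regulators and sterol-handling genes, and all 14 fatty acid genes. Those without a matching row, and so not analysed here, were MVK, PMVK, MVD, IDI1, FDFT1, TM7SF2, HSD17B7, EBP, SC5D, STARD4 and ABCA1. The sterol route is therefore seen at 9 of its 18 listed enzymes. The test kept rows whose mean lay above the lowest 25% of all row means, which 27 members did. INSIG2, NPC2, SCD1 and SCD2 lay below it.

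Promoters are shown for 5 of the 6 sterol enzymes and regulators that had an unadjusted p under 0.05, since they include values in both directions: LSS was higher with VS-4718, and HMGCS1, MSMO1, DHCR7 and INSIG1 were lower. The other one, SQLE, is not shown. Each stretch begins 250 bases before the first RefSeq start listed (GRCh38.p14) and stops before the first base that GENCODE 29 places in an exon of that gene, so it holds no exon of it. For HMGCS1, MSMO1, INSIG1 and LSS the stretch lies upstream of the whole GENCODE gene. For DHCR7 it lies inside the gene, in an intron of a transcript that starts farther upstream. Capitals mark matches, on either strand, to CCAAT (the NF-Y box), GGGCGG (the SP1 box), CACGTG (an E-box) or TCACNCCAC (a sterol regulatory element). Adjoining or overlapping matches run together. The coordinates are chr5:43313513-43313662 on the minus strand for HMGCS1, chr4:165327419-165327622 on the plus strand for MSMO1, chr11:71448436-71448643 on the minus strand for DHCR7, chr7:155297628-155297775 on the plus strand for INSIG1 and chr21:46228825-46229024 on the minus strand for LSS.
HMGCS1: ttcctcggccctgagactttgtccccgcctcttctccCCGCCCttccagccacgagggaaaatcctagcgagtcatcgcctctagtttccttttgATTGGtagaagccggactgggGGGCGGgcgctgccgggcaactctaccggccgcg
MSMO1: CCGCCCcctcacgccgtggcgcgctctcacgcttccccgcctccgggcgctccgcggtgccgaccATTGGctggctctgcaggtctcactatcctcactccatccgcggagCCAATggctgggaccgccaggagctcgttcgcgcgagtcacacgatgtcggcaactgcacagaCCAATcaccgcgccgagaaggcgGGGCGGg
DHCR7: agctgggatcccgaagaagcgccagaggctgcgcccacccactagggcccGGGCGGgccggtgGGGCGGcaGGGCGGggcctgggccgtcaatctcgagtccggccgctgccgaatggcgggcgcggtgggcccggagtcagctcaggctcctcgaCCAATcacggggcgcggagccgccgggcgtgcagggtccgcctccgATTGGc
INSIG1: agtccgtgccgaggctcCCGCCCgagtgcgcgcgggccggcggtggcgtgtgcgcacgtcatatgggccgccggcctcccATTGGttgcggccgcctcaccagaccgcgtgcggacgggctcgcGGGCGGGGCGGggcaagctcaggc
LSS: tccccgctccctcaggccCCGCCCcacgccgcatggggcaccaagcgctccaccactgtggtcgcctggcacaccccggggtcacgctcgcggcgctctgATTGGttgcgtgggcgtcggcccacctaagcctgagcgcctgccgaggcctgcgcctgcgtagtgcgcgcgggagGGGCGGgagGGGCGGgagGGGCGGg

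Of the 27 tested members 24 matched a RefSeq promoter, CYP51 through the human symbol CYP51A1. In the full 250 bases before the start, CCAAT was found in 14 of the 24, against 33% of all 27305 promoters of the same length and 36.4% of the 6077 that belong to tested rows. By list, 6 of 7 sterol enzymes, 3 of 6 regulators and 5 of 11 fatty acid genes held it. HMGCS1 had it 155 and 100 bases before the start, the latter past the end of the stretch shown, and LSS 150 bases before. Both of these genes held the box, HMGCS1 with lower and LSS with higher values. FDPS held it 3 times and NSDHL 5 times, with log2 differences of 0.05 and -0.01. CYP51 did not hold it and had a log2 difference of -0.26. Whether the box bears on the differences was not tested. GGGCGG was found in 21 of the 24, against 42.3% of all promoters and 70.7% of those of tested rows. CACGTG was found in 3 (SCAP, ELOVL5 and INSIG1, where it lies past the stretch shown), against 6.49% and 10.3%. TCACNCCAC was found only in the window of SREBF2, against 0.875% and 0.74%. A match describes the letters in this window, and no match says nothing about binding.

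Across the comparison, 5 sterol-related members had lower values in every VS-4718 library than in any vehicle library. They were HMGCS1, SQLE, MSMO1 and DHCR7 of the sterol route, and INSIG1, the feedback regulator. LSS, the enzyme that closes the sterol ring, had higher values in every VS-4718 library. Of all tested rows, 11.2% lacked overlap in the lower direction and 5.15% in the higher. The transcripts of SREBF1, SREBF2 and SCAP differed by less than 0.1 log2 units. Among the 12 tested fatty acid members, only ACLY and ELOVL1 had groups that did not overlap. None of the 27 tested members passed the limma test after Benjamini-Hochberg adjustment over all 9229 tested rows, at a threshold of 0.05, where 0.13% of rows passed. The smallest adjusted p of a member was 0.19 (HMGCS1), so the differences below are measured values and not called changes.

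At an unadjusted limma p under 0.05, 6 members were lower (HMGCS1, SQLE, DHCR7, INSIG1, MSMO1 and ACLY), against 6.74% of all tested rows. At the same p, 1 member was higher (LSS), against 3.02% of rows. Groups did not overlap for 7 members in the lower direction, against 11.2% of rows, and for 1 in the higher direction, against 5.15%. Of the 27 members 17 had a lower mean with VS-4718, which is 63% and close to the 58.2% of all tested rows. The 9 sterol enzymes had 4 lower and 1 higher at that p, the 6 regulators 1 lower, and the 12 fatty acid genes 1 lower. The median log2 difference, VS-4718 minus vehicle, was -0.26 over the sterol enzymes, 0.01 over the regulators and -0.08 over the fatty acid genes, beside -0.03 over all tested rows. The members were chosen with earlier results of these data known, so these counts describe the lists and do not test them.

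**Figure D1:**
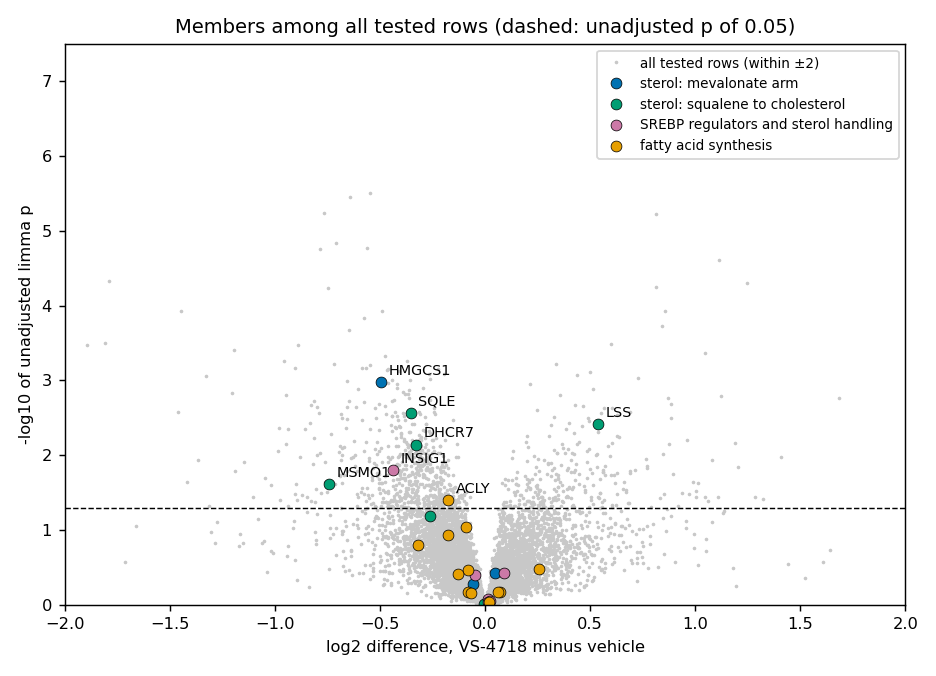
Each tested row by its log2 difference (VS-4718 minus vehicle, horizontal axis) and the -log10 of its unadjusted limma p (vertical axis); grey points are all tested rows within 2 units of 0 and coloured points are the members of each list. Of the 7 named members above the dashed line, 6 lie on the lower side and LSS alone on the higher side, and many grey rows lie above them.

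Of the 3 measured enzymes of the mevalonate arm, HMGCS1 alone had groups that did not overlap, beside 11.2% of all tested rows in the lower direction. HMGCS1 encodes the cytosolic synthase that makes HMG-CoA, the precursor of mevalonate. Log2 values of HMGCS1 were 3.85, 3.92 and 3.81 in the vehicle libraries and 3.30, 3.32 and 3.46 in the VS-4718 libraries. The highest VS-4718 value thus lay below the lowest vehicle value. The log2 difference was -0.50 (SE 0.09, 95% confidence interval -0.71 to -0.28, unadjusted p = 0.001, adjusted p = 0.19), and the geometric mean with VS-4718 was 70.9% of vehicle. By unadjusted p it ranked 51 of 9229 rows.

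ACAT2, a cytosolic thiolase that makes acetoacetyl-CoA, the substrate of HMGCS1, had values of 6.06, 6.13 and 6.22 in vehicle and 6.07, 5.95 and 6.22 with VS-4718. The groups overlapped, and the log2 difference was -0.06 (95% confidence interval -0.26 to 0.15). FDPS makes farnesyl diphosphate at the end of the arm. It had values of 7.85, 7.93 and 8.01 in vehicle and 7.99, 7.96 and 7.99 with VS-4718, with a log2 difference of 0.05 (interval -0.07 to 0.17). The interval of HMGCS1 did not meet that of FDPS. Taken within each library, where a common scaling factor cancels, the log2 value of HMGCS1 minus that of FDPS was -4.07 ± 0.11 (SD, n = 3) in vehicle and -4.62 ± 0.08 with VS-4718, a pair chosen after the values were seen.

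After squalene the members went in both directions. SQLE, squalene epoxidase, carries out the first oxygen-requiring step and is a known control point of the route. Its log2 values were 4.77, 4.85 and 4.88 in vehicle and 4.45, 4.42 and 4.57 with VS-4718. All 3 VS-4718 libraries were below all vehicle libraries. SQLE thus had a log2 difference of -0.35 (SE 0.08, interval -0.54 to -0.17, unadjusted p = 0.0027, adjusted p = 0.25), or 78.3% of vehicle.

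LSS, lanosterol synthase, uses the product of SQLE and folds it into lanosterol. Log2 values of LSS were 2.64, 2.84 and 3.00 in vehicle and 3.40, 3.44 and 3.26 with VS-4718. Here the lowest VS-4718 value was above the highest vehicle value. LSS thus had a log2 difference of 0.54 (SE 0.13, interval 0.24 to 0.84, unadjusted p = 0.0038, adjusted p = 0.28), or 145.3% of vehicle. Within each library, SQLE minus LSS was 2.13, 2.01 and 1.88 log2 units in vehicle and 1.05, 0.98 and 1.31 with VS-4718. The means of this within-library difference were 2.01 ± 0.13 (SD, n = 3) and 1.11 ± 0.17, and the pair was likewise chosen after the values were seen.

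Of the 4 measured enzymes that trim lanosterol to cholesterol, MSMO1 and DHCR7 had groups without overlap, both lower, beside 11.2% of all tested rows. MSMO1, which removes methyl groups at the C4 position, had log2 values of 1.14, 1.63 and 1.19 in vehicle and 0.78, 0.13 and 0.84 with VS-4718. The groups did not overlap, but the row is low, its spread was wide in both groups (SD 0.27 and 0.39), and 1 VS-4718 library lay well under the other two. For MSMO1 the log2 difference was -0.74 (SE 0.26, interval -1.35 to -0.13, unadjusted p = 0.024, adjusted p = 0.44). Without VS-4718 replicate 2 it was -0.51.

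DHCR7 reduces 7-dehydrocholesterol in the final step to cholesterol. Its log2 values were 5.38, 5.51 and 5.42 in vehicle and 5.23, 4.97 and 5.12 with VS-4718, without overlap. DHCR7 thus had a log2 difference of -0.33 (SE 0.09, interval -0.53 to -0.12, unadjusted p = 0.0072, adjusted p = 0.35), or 79.7% of vehicle.

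CYP51, the lanosterol demethylase, had log2 values of 6.66, 6.80 and 6.67 in vehicle and 6.37, 6.25 and 6.71 with VS-4718. Replicates 1 and 2 of VS-4718 were below every vehicle library and replicate 3 was among them. The log2 difference was -0.26 (interval -0.55 to 0.02, unadjusted p = 0.064), and it was -0.40 without VS-4718 replicate 3. Leaving out replicate 2 of VS-4718 in its place gave -0.17. NSDHL, a dehydrogenase that acts with MSMO1 on the C4 methyl groups, had values from 3.48 to 3.79 in vehicle and from 3.36 to 3.76 with VS-4718. Its groups overlapped almost wholly, with a log2 difference of -0.01 (interval -0.34 to 0.33).

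**Figure D2:**
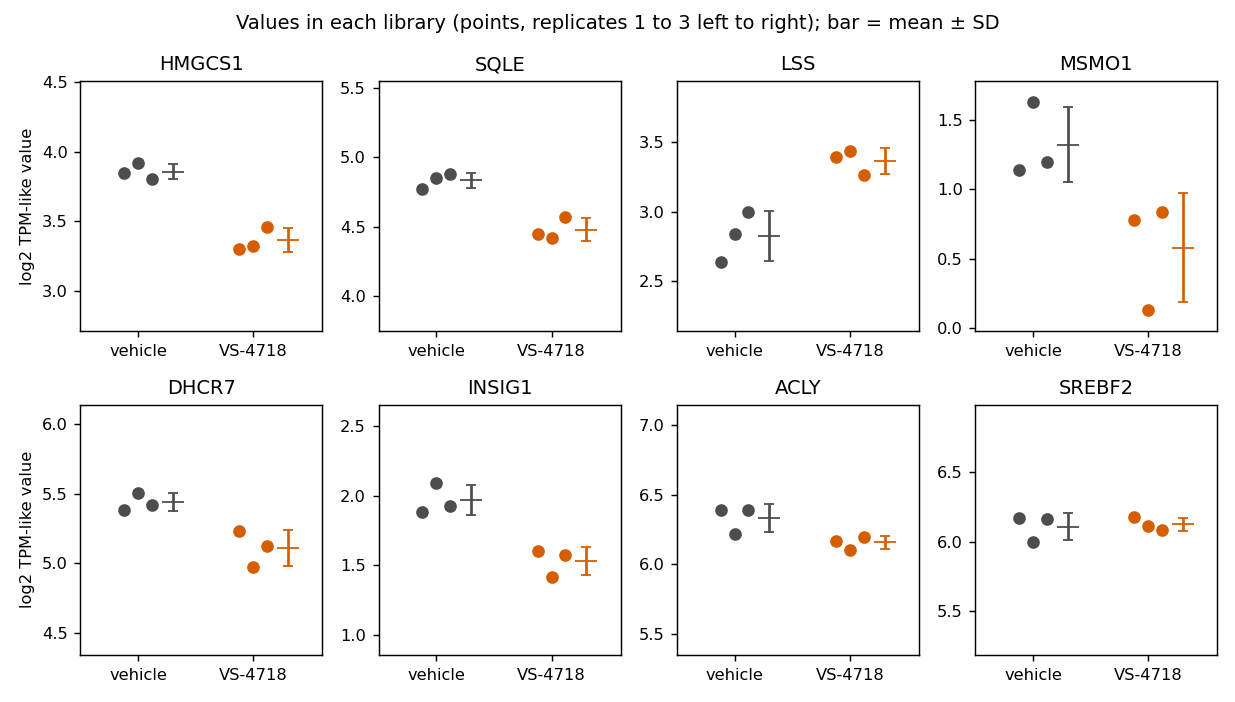
Log2 TPM-like values of 8 members in each library (points), with the mean and SD of each group beside them; every panel spans the same height on the vertical axis. HMGCS1, SQLE, MSMO1, DHCR7, INSIG1 and ACLY have all 3 VS-4718 libraries below the vehicle libraries, LSS has them above, and the groups of SREBF2 overlap.

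Among the 6 tested regulators, only INSIG1 had groups that did not overlap. It was lower with VS-4718, as were 11.2% of all tested rows without overlap. INSIG1 retains the SCAP-SREBP complex in the endoplasmic reticulum and is itself a known SREBP target. Log2 values of INSIG1 were 1.89, 2.09 and 1.93 in vehicle and 1.61, 1.42 and 1.57 with VS-4718. INSIG1 thus had a log2 difference of -0.44 (SE 0.14, interval -0.77 to -0.11, unadjusted p = 0.016, adjusted p = 0.40), or 73.8% of vehicle. Its paralog INSIG2 was too low to be tested, from -3.92 to -2.12 in vehicle and from -2.41 to -0.65 with VS-4718.

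The transcripts of the SREBPs and of SCAP overlapped between groups. SREBF2, which encodes SREBP-2, had log2 values of 6.17, 5.99 and 6.16 in vehicle and 6.17, 6.11 and 6.08 with VS-4718. The groups overlapped, with a log2 difference of 0.01 and an interval of -0.15 to 0.18. SREBF1, which encodes SREBP-1, had values of 6.60, 6.64 and 6.65 in vehicle and 6.57, 6.65 and 6.52 with VS-4718. Its log2 difference was -0.05, with an interval of -0.18 to 0.08. SCAP had values of 3.97, 3.80 and 4.01 in vehicle and 4.10, 3.98 and 3.96 with VS-4718, with overlap. The difference in SCAP was 0.09 log2 units (interval -0.14 to 0.31). These rows give transcript levels, and the processed, nuclear form of either SREBP was not measured.

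The genes that handle sterols after synthesis or uptake also overlapped between groups. MYLIP, a ubiquitin ligase that marks lipoprotein receptors for degradation and is a known target of the oxysterol receptors LXR, averaged 3.11 ± 0.22 (SD, n = 3) in the vehicle group and 3.12 ± 0.15 under VS-4718. NPC1, a membrane protein that exports cholesterol from lysosomes, had values of 4.33, 4.55 and 4.65 in vehicle and 4.20, 4.70 and 4.70 with VS-4718. The log2 difference was 0.01 for MYLIP (interval -0.33 to 0.36) and 0.02 for NPC1 (interval -0.36 to 0.40), so a difference of 0.33 either way would lie within these intervals. NPC2, the soluble partner of NPC1, was below the filter in every library, from -4.82 to -3.35 in vehicle and from -3.74 to -1.75 with VS-4718.

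Among the 12 tested fatty acid members, ACLY and ELOVL1 had groups without overlap, both lower, beside 11.2% of all tested rows. ACLY splits citrate into the acetyl-CoA that feeds both routes, and it had the smallest p of its list. Its log2 values were 6.39, 6.22 and 6.39 in vehicle and 6.17, 6.11 and 6.19 with VS-4718, just without overlap. ACLY thus had a log2 difference of -0.17 (SE 0.07, interval -0.34 to -0.01, unadjusted p = 0.040, adjusted p = 0.49), or 88.6% of vehicle. ELOVL1, an elongase of very long saturated chains, had values of 6.95, 6.90 and 6.91 in vehicle and 6.83, 6.82 and 6.85 with VS-4718. Its groups did not overlap either, but the log2 difference was only -0.09 (interval -0.20 to 0.02).

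The synthases proper overlapped between groups. ACACA, acetyl-CoA carboxylase, which commits acetyl-CoA to fatty acids, had values of 2.71, 1.82 and 2.03 in vehicle and 2.27, 2.40 and 2.67 with VS-4718. Its vehicle replicate 1 lay above both other vehicle libraries, and the log2 difference was 0.26 (interval -0.33 to 0.85), or 0.52 without that library. It was 0.075 without vehicle replicate 2 and 0.15 without VS-4718 replicate 3. FASN, fatty acid synthase, averaged 5.64 ± 0.20 (SD, n = 3) in the vehicle group and 5.56 ± 0.33 under VS-4718, and its log2 difference was -0.08 (interval -0.50 to 0.34).

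The elongases and desaturases had differences from -0.32 to 0.07 log2 units. ELOVL5, which lengthens polyunsaturated chains, had values of 6.48, 6.11 and 6.21 in vehicle and 6.09, 6.05 and 6.13 with VS-4718, a log2 difference of -0.18 (interval -0.42 to 0.06). ELOVL6, which lengthens palmitate, had values of 1.89, 2.25 and 2.64 in vehicle and 1.94, 2.01 and 1.86 with VS-4718, a log2 difference of -0.32 (interval -0.80 to 0.16). In both, the vehicle libraries spread more widely than the VS-4718 libraries. ELOVL5 was -0.071 without vehicle replicate 1, and ELOVL6 was -0.51 without vehicle replicate 1 and -0.13 without vehicle replicate 3. FADS1 and FADS2, the front-end desaturases of polyunsaturated fatty acids, had log2 differences of 0.02 and 0.07, with groups that overlapped.

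SCD1 and SCD2 are mouse names for stearoyl-CoA desaturases. SCD1 lay between -2.69 and -1.75 in vehicle and between -3.23 and -2.27 with VS-4718, and SCD2 between -3.76 and 0.28 and between -4.27 and -3.54, all below the filter. The row SCD3, another mouse name of this family, was well above it, from 5.98 to 6.01 in vehicle and from 5.72 to 5.95 with VS-4718, without overlap (log2 difference -0.12, interval -0.30 to 0.06). The sources used here do not give which human transcripts feed these 3 rows, so they give no level for the human enzyme.

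The genes that activate or redirect fatty acids overlapped between groups. ACSS2, which makes acetyl-CoA from acetate, had a log2 difference of 0.06 (interval -0.26 to 0.39). ACSL3 and ACSL4, acyl-CoA synthetases, had -0.08 (interval -0.26 to 0.10) and -0.07 (interval -0.43 to 0.30). LPIN1, a phosphatidate phosphatase, had -0.13 (interval -0.47 to 0.21).

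**Figure D3:**
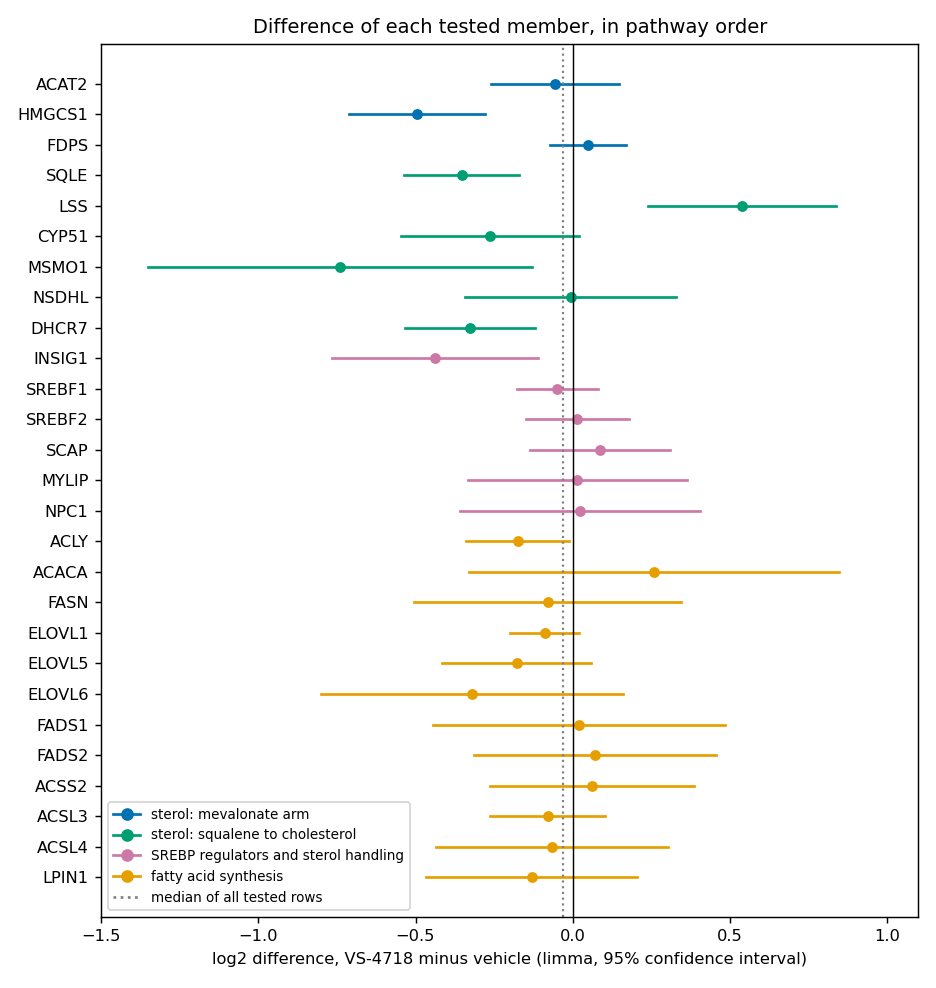
Log2 difference (VS-4718 minus vehicle, horizontal axis) of the 27 tested members in pathway order, with the 95% confidence interval from limma as a line; colours give the list and the dotted line the median of all tested rows. The intervals of HMGCS1, SQLE, MSMO1, DHCR7, INSIG1 and ACLY lie below 0 and that of LSS above it, without adjustment for the number of rows.

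The members did not move evenly over the 3 VS-4718 libraries. The median deviation of the 9 sterol enzymes from their vehicle means was -0.20, -0.42 and 0.00 log2 units in VS-4718 replicates 1, 2 and 3. In vehicle replicates 1, 2 and 3 it was -0.08, 0.06 and -0.02. Over all tested rows the same medians were -0.03, -0.06 and -0.01 in the VS-4718 libraries, so replicate 2 was also the lowest there, by a smaller amount. Replicate 2 held the lowest value of SQLE, CYP51, MSMO1, NSDHL, DHCR7 and INSIG1, and replicate 3 held the highest VS-4718 value of HMGCS1, SQLE, CYP51 and MSMO1. Without replicate 2, 4 members remained lower at an unadjusted p under 0.05 (HMGCS1, SQLE, DHCR7 and INSIG1), and LSS remained higher.

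**Figure D4:**
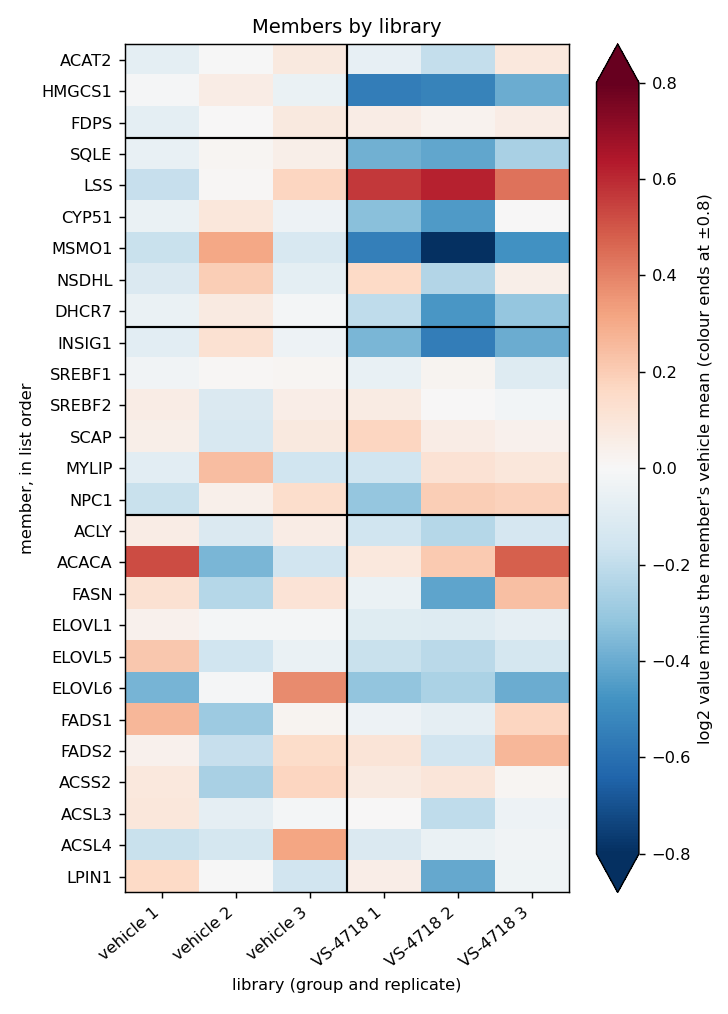
Log2 value of each tested member minus its own vehicle mean (colour), by library (columns) and in list order (rows), with black lines between the lists and between the groups. HMGCS1, SQLE, MSMO1, DHCR7 and INSIG1 are blue in all 3 VS-4718 libraries and LSS is red. The blue of ACAT2, SQLE, CYP51, MSMO1, NSDHL and DHCR7 is deepest in VS-4718 replicate 2, and that of HMGCS1 in replicate 1.

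The wider gene lists around these routes held few differences, and none of their 90 tested genes passed over all rows. Of the 25 other tested genes of sterol transport, SREBP processing and SREBP cofactors, 14 had lower means, beside 58.2% of all tested rows. The median log2 difference of the 25 was -0.01. At an unadjusted limma p under 0.05, 2 of them were lower, beside 6.74% of rows. The smallest p belonged to NFYB, a DNA-binding subunit of NF-Y, the factor that binds CCAAT. Its log2 values were 4.79, 4.69 and 4.72 in vehicle and 4.19, 4.35 and 4.28 with VS-4718, all lower than vehicle. The log2 difference was -0.46 (SE 0.08, unadjusted p = 7.0e-04, adjusted p = 0.18). The other NF-Y subunits had values nearer 0, -0.27 for NFYA (SE 0.18, with overlap) and -0.04 for NFYC (SE 0.05, without overlap), and SP1 had 0.05 (SE 0.15). These differences between subunits were not tested. RNF145, a ubiquitin ligase of the endoplasmic reticulum tied to SCAP, had log2 values of 4.40, 4.54 and 4.03 in vehicle and 4.14, 3.76 and 3.92 with VS-4718. Its groups overlapped, with a log2 difference of -0.38 (SE 0.16, unadjusted p = 0.049, adjusted p = 0.51). The proteases that release SREBPs, MBTPS1 and MBTPS2, had 0.06 (SE 0.17) and 0.47 (SE 0.27).

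Farnesyl diphosphate also feeds ubiquinone, dolichol and prenyl groups, and 10 of 13 tested genes of that branch had lower means (median -0.11), beside 58.2% of all tested rows, with none at an unadjusted p under 0.05. Groups did not overlap in 4 of them, all lower, beside 11.2% of rows: PDSS1 and COQ2 of ubiquinone synthesis (-0.24, SE 0.11, and -0.27, SE 0.13) and NUS1 and DOLK of dolichol synthesis (-0.11, SE 0.08, and -0.24, SE 0.10). Of 28 tested genes of further fatty acid and glycerolipid synthesis, 17 had lower means (median -0.03), beside 58.2% of all tested rows. Groups did not overlap for 5 of the 28, all lower, beside 11.2% of rows. Only MID1IP1, a protein that helps acetyl-CoA carboxylase to polymerise, had an unadjusted limma p under 0.05. At that p, 6.74% of all tested rows were lower and 3.02% higher. MID1IP1 was lower. Its log2 values were 5.54, 5.76 and 6.12 in vehicle and 5.49, 4.95 and 4.92 with VS-4718, so the groups nearly touched. The log2 difference was -0.68 (SE 0.20, unadjusted p = 0.011, adjusted p = 0.37).

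The row names follow mouse usage (CYP51, SCD1, SCD2), although the labels give human cells and the build GRCh38, so a level describes a row and comparisons are made within it. Melanocyte lineage markers were present: 11 of 12 had a row, with summed linear values of 7372 to 7951 in vehicle and 7158 to 7837 with VS-4718, while TYR, DCT and MLANA were below the filter. PMEL and TYRP1 make up most of that sum. Among the others, PAX3 was higher in every VS-4718 library (log2 difference 0.22, SE 0.09, unadjusted p = 0.042, adjusted p = 0.49) and EDNRB lower in every one (-0.12, SE 0.06, adjusted p = 0.56). Few markers of other cells had a row. The summed linear values were 21.9 to 26.6 in vehicle and 23.9 to 28.8 with VS-4718 for 3 of 8 endothelial markers, of which PECAM1 and EGFL7 were above the filter. For 6 of 10 fibroblast markers the sums were 1.196 to 2.45 and 2.17 to 2.56, for 2 of 10 immune markers 0.516 to 0.977 and 0.379 to 0.725, and for 1 of 8 epithelial markers 0.118 to 0.501 and 0.243 to 0.473. Their part in the results was not tested. In GENCODE 29 on GRCh38 the members with a row other than SCD1 and SCD2, which were not matched, are protein-coding genes. HMGCS1 lies on chromosome 5 from 43289395 to 43313512, LSS on chromosome 21 from 46188141 to 46228824, MSMO1 on chromosome 4 from 165327623 to 165343160, DHCR7 on chromosome 11 from 71428193 to 71452868 and INSIG1 on chromosome 7 from 155297776 to 155310235. Antisense genes overlap the spans of HMGCS1, FDPS, LSS, CYP51, DHCR7, SREBF2, ACLY, ACSL3 and LPIN1 on the opposite strand. Genes of other types do so for further members, such as ACAT2. The sources used here do not say whether the libraries keep the strand. If they do not, reads from a stretch that both genes of a pair transcribe could not be told apart. Whether their exons overlap was not examined.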

How the data were processed

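Per the labels' protocols, total RNA of 92.1 cells was sequenced after 2 h of 1 µM VS-4718 or vehicle, 3 libraries a group. Per the submitters' processing notes, kallisto and the build GRCh38 were used, and the sources used here give no index, annotation, strandedness or filter. The authors deposited log2 values, 1 row per symbol. On the linear scale each library sums to 836527 to 840714, which is TPM-like, and with no read counts the depth is unknown.

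Values were fitted as deposited with limma 3.58.1 in R 4.3.3 (group as the only term, variances that follow the mean, no pseudocount) over the 9229 of 12306 rows with a mean above 0.70, with two-sided p-values and Benjamini-Hochberg adjustment over those rows. Confidence intervals are limma's moderated 95% intervals, unadjusted. With 3 against 3 an exact permutation test of 1 gene cannot go below 0.1. The script was tested on simulated data. Members and lists were chosen with earlier results of these data known. Every member with a row is accounted for. Full values are given for up to 5 members per list with the smallest p, for members against their list's median at an unadjusted p under 0.05, and for wider-list genes at that p. Genes named beyond this rule (SCD3, NFYA, NFYC, SP1, MBTPS1, MBTPS2, PDSS1, COQ2, NUS1, DOLK, ACADS, HADHA, PPARGC1A, PPARGC1B, PRKAA1, PAX3, EDNRB) were named after their values were seen. 3 genes of the wider lists are not reported here. The 13 alternatives were leaving out each library, a replicate block, median scaling, other filters, no trend and pseudocounts of 1 and 0.1. Promoters are from RefSeq (GRCh38.p14), genes from GENCODE 29; figures were drawn with matplotlib 3.10.9.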

Additional observations from a re-analysis of the deposited data

How the results depend on the processing

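No member was called in any of the 13 alternatives, where the smallest adjusted p of a member was 0.17. The number of called rows among all genes was 12. In limma the replicate block gave 0 (793 at unadjusted p under 0.05), dropping the variance trend gave 0 (910), and leaving out 1 library gave 0 to 7. The cause was not tested. Residuals of libraries that share a number correlated at 0.13, 0.05 and 0.03 over genes, and those with different numbers at -0.094 to 0.049. These values do not settle whether the numbers pair the libraries. The main fit therefore has no pairing term, and the replicate block is given beside it. Members lower at an unadjusted limma p under 0.05 numbered 6, and 4 to 6 in the alternatives (5 with the replicate block, without MSMO1). Some fits brought in others: ELOVL6 without vehicle replicate 1, ELOVL5 without vehicle replicate 2 and CYP51 without VS-4718 replicate 3. Members higher at that p numbered 1, and 1 to 2 over the fits without 1 library, ACACA joining LSS without vehicle replicate 1. HMGCS1, SQLE, DHCR7 and LSS stayed under that p in all 13, and ACLY, INSIG1 and MSMO1 did not. ACLY was over it with median scaling, without the trend and in every fit without 1 library, except that without vehicle replicate 2. INSIG1 was over it without vehicle replicate 2. MSMO1 was over it with the replicate block and without replicate 2 of either group. The stricter filter left INSIG1 and MSMO1 out. The 4 list medians moved by less than the spread between libraries. Those of the mevalonate arm and the regulators, both near 0, changed sign when single libraries were left out. Of 343 member values under alternatives, 322 kept their sign and 21 changed it, all in 11 members near 0. NSDHL was 0.027 with median scaling. With a library left out, the range was -0.13 to 0.0098 for ACAT2, -0.091 to 0.11 for NSDHL, -0.042 to 0.044 for SREBF2, -0.066 to 0.14 for MYLIP, -0.066 to 0.19 for NPC1, -0.24 to 0.091 for FASN, -0.12 to 0.15 for FADS1, -0.027 to 0.18 for FADS2, -0.068 to 0.15 for ACSS2, -0.15 to 0.094 for ACSL4 and -0.22 to 0.011 for LPIN1. The unknown depth limits what can be said of low rows such as MSMO1 and INSIG1.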

Other observations

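Genes that burn fatty acids, the opposite of the routes above, had no member at an unadjusted limma p under 0.05. Lower means were found in 8 of 18 tested genes, beside 58.2% of all tested rows. The median log2 difference of the 18 was 0.02. Groups did not overlap for 2 of the 18 in the higher direction and 2 in the lower, beside 5.15% and 11.2% of rows. ACADS, a dehydrogenase of short chains, and HADHA, a subunit of the mitochondrial trifunctional protein, had higher values in every VS-4718 library (0.28, SE 0.13, and 0.07, SE 0.05). PPARGC1A and PPARGC1B, coactivators of oxidative metabolism, had lower values in every one (-0.29, SE 0.13, and -0.19, SE 0.14).

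AMPK, a kinase known to restrain acetyl-CoA carboxylase and the mevalonate route, had 5 of 6 tested subunit and upstream kinase genes lower. The share of lower means was 58.2% over all tested rows. The median log2 difference of the 6 genes was -0.16. Their median deviation from the vehicle means was -0.15, -0.42 and 0.07 log2 units in VS-4718 replicates 1, 2 and 3. PRKAB1, a regulatory subunit, had log2 values of 3.28, 3.00 and 3.30 in vehicle and 2.84, 2.51 and 2.95 with VS-4718, a log2 difference of -0.43 (SE 0.16, unadjusted p = 0.028, adjusted p = 0.46 in limma). The catalytic subunit gene PRKAA1 had groups that overlapped (-0.12, SE 0.20).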
